A study of Mus musculus with 16 samples.

Results

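E14TG2a mouse embryonic stem cells that ectopically expressed KDM4A without its intrinsically disordered region (IDR) were compared with E14TG2a cells that ectopically expressed full-length KDM6B. These are 4 of the 16 libraries of the series, 2 for each group. The other 12 libraries came from cells with full-length KDM4A, IDR-deleted KDM6B, or a full-length or IDR-deleted form of KDM4B or KDM6A. Every group carried such a construct, and all were cultured with LIF at 1000 U per ml, the MEK inhibitor PD0325901 at 1 µM and the GSK3 inhibitor CHIR99021 at 3 µM. The labels do not give the deleted residues, the construct's promoter or whether a line is a clone, and they do not say whether paired libraries were grown as separate cultures. The p-values therefore measure the spread between these libraries, which may be technical. The pair was chosen by its position on the main axis of variation of these gene counts, where both groups lie close together, so that closeness is a description and was not tested.

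KDM4A removes methyl groups from lysines 9 and 36 of histone H3, marks of heterochromatin and of transcribed gene bodies. KDM6B (JMJD3) removes them from lysine 27, the mark that Polycomb repressive complex 2 places on silent developmental genes. An IDR is a stretch of protein without a fixed fold, and such stretches can take part in where a chromatin protein binds. Chromatin-associated RNA is the fraction that stays with chromatin when a nucleus is fractionated; it holds nascent transcripts, retained noncoding RNAs such as Malat1, and transcripts of transposable elements.

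The 4 libraries held 38093072 and 32739117 gene reads for IDR-deleted KDM4A and 48894860 and 47069827 for full-length KDM6B. The correlation of log2 CPM was 0.980 within the first and 0.987 within the second group. On the first axis of a multidimensional scaling over the 500 genes that differed most between each pair of libraries, which held 39.5% of the variance, IDR-deleted KDM4A lay at -1.66 and -1.67 and full-length KDM6B at -1.66 and -1.71. The libraries with IDR-deleted KDM6B lay at -1.62 and -1.56, and the other 10 between 0.07 and 1.90. The second axis, with 8.20% of the variance, placed IDR-deleted KDM4A at 0.41 and 0.56 and full-length KDM6B at -0.45 and -0.36, with IDR-deleted KDM6B beside the former at 0.49 and 0.43. On the third axis the 2 IDR-deleted KDM4A libraries stood apart from each other, at -0.19 and 1.17.

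**Figure D1:**
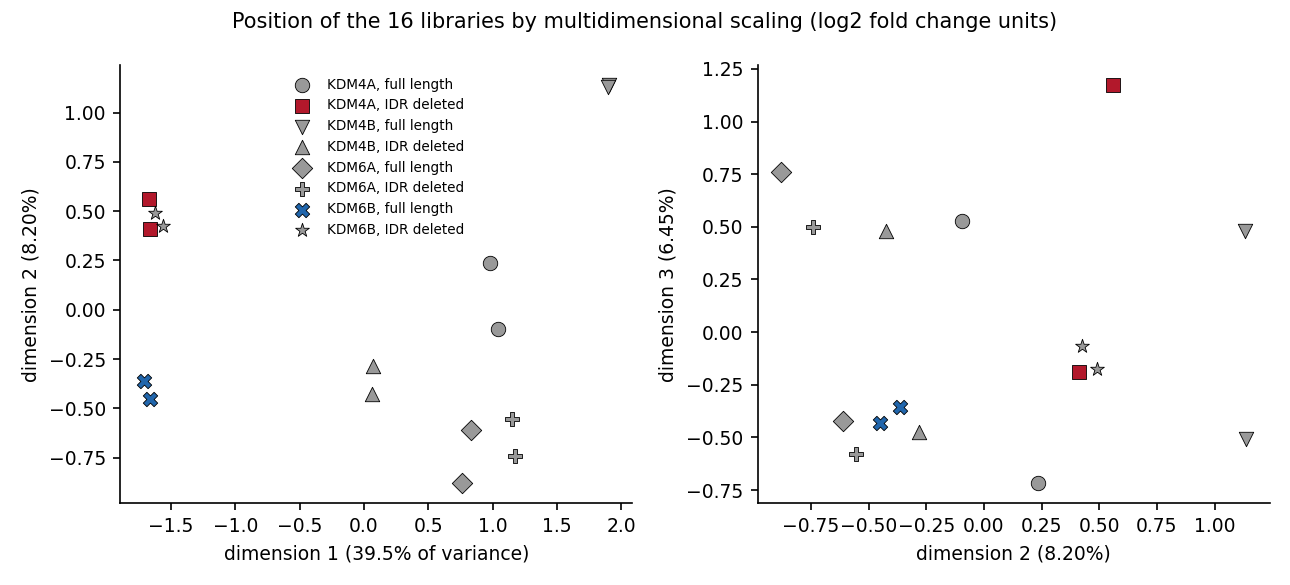
Positions of the 16 libraries in a multidimensional scaling of log2 CPM; each point is 1 library, the axes are leading log2 fold change dimensions, and symbols mark the groups, with dimensions 1 and 2 on the left and 2 and 3 on the right. IDR-deleted KDM4A (red) and full-length KDM6B (blue) share the left end of the first axis and separate on the second, at 0.41 and 0.56 against -0.45 and -0.36.

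Of 31057 genes tested, 9359 (30.1%) differed between the groups: 4500 (14.5%) were higher and 4859 (15.6%) lower with IDR-deleted KDM4A (edgeR quasi-likelihood test, Benjamini-Hochberg adjusted p under 0.05). Most differences were small. The median absolute log2 fold change over all genes was 0.34, and 1523 genes (4.9%) passed the test with at least a 2-fold difference, 908 of them higher and 615 lower. In 60.6% of all genes the 2 libraries of one group lay beyond both libraries of the other. Scaling to the ERCC spike-in RNAs found in the gene table in place of the genes raised the median gene by 0.05 on the log2 scale and turned the calls to 4954 higher and 3501 lower. Of the genes that were higher, IDR-deleted KDM4A had the highest mean of the 8 groups in 2710 (60.2%, against 18.1% of all genes tested), whereas full-length KDM6B had the lowest in 939 (20.9%, against 11.2%). Of the genes that were lower, IDR-deleted KDM4A had the lowest mean in 2615 (53.8%, against 19.4%) and full-length KDM6B the highest in 950 (19.6%, against 8.28%).

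The rise with the smallest p was that of Sms, which encodes spermine synthase (GRCm39 chrX:156226851-156275283). Sms stood at 364 and 359 CPM (counts scaled to the total of gene reads by TMM) with IDR-deleted KDM4A and at 148 and 135 CPM with full-length KDM6B. The groups were far apart relative to their spread, a 2.55-fold difference (log2 fold change 1.35 ± 0.04 SE, adjusted p = 3.6e-24), and these were the highest and the lowest of the 8 groups. Adam23, which encodes a cell-surface integrin-binding protein (chr1:63485050-63635435), stood at 176 and 179 CPM against 76.8 and 73.5 CPM (1.24 ± 0.04). Col5a3, a fibrillar collagen chain (chr9:20681346-20726363), was at 58.7 and 57.5 CPM against 16.9 and 17.9 CPM (1.74 ± 0.07, adjusted p = 2.2e-20). Full-length KDM6B was again the lowest group for Col5a3, while IDR-deleted KDM6B was at 58.8 and 56.7 CPM, overlapping IDR-deleted KDM4A. Itpr1, the endoplasmic reticulum calcium channel, Neb, the giant sarcomere protein nebulin, and Caprin2 were higher by log2 fold changes of 0.84, 0.84 and 0.82. IDR-deleted KDM4A was the highest of the 8 groups for all 6 of these genes.

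The falls with the smallest p were led by abundant RNAs. The gene mt-Co1, a cytochrome c oxidase subunit encoded in the mitochondrial genome, was at 586 and 619 CPM with IDR-deleted KDM4A and at 1279 and 1245 CPM with full-length KDM6B (-1.07 ± 0.03, adjusted p = 3.6e-24). Only IDR-deleted KDM6B was higher, at 1874 and 1892 CPM. Eef1a1, the translation elongation factor, was at 1458 and 1455 CPM against 2412 and 2341 CPM (-0.71 ± 0.03), and Actb, cytoplasmic actin, at 460 and 482 CPM against 805.5 and 810.4 CPM (-0.78 ± 0.03). In both genes the libraries of the 2 groups were far apart relative to their spread. Abca1, a cholesterol exporter, was at 130 and 122 CPM against 249 and 244 CPM (-0.97 ± 0.04), and Dusp27 at 32.6 and 32.0 CPM against 76.1 and 83.2 CPM (-1.30 ± 0.06). For Abca1 and Dusp27, IDR-deleted KDM4A was the lowest of the 8 groups.

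**Figure D2:**
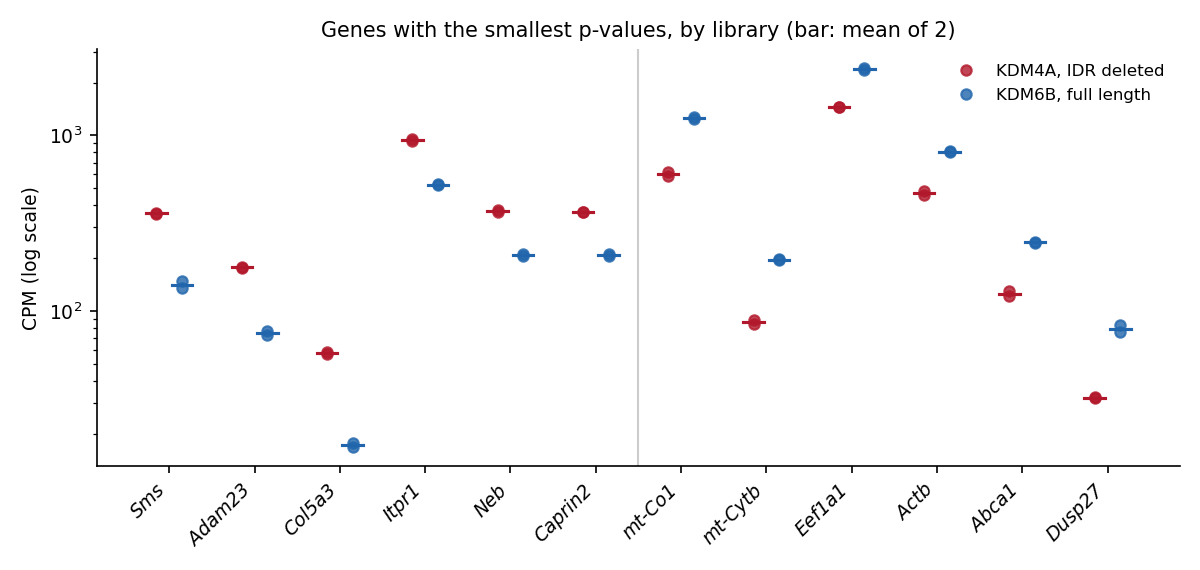
CPM on a log axis of the 6 genes with the smallest p in each direction, rises left of the vertical line and falls right of it; each point is 1 library, red for IDR-deleted KDM4A and blue for full-length KDM6B, and bars are means of 2. Sms stands at 364 and 359 against 148 and 135 CPM, and mt-Co1 shows the opposite order, at 586 and 619 against 1279 and 1245 CPM.

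The largest fold changes were in genes of few reads. Rptn, which encodes the epidermal protein repetin (chr3:93301006-93306749), was at 1.46 and 1.13 CPM against 0.152 and 0.0452 CPM (3.67 ± 0.43, adjusted p = 9.9e-09), and its relative Hrnr at 1.66 and 1.34 CPM against 0.0867 and 0.226 CPM (3.25 ± 0.43). Full-length KDM6B held the lowest Rptn of the 8 groups. The transcription factor genes Atoh8, Vrtn and Pou4f2 were higher by log2 fold changes of 3.01, 2.51 and 2.29, but Vrtn did not pass the test without the second IDR-deleted KDM4A library. In the other direction, H19, the imprinted maternally expressed noncoding RNA (chr7:142129262-142131917), was at 0.408 and 0.993 CPM against 5.66 and 6.39 CPM (-3.13 ± 0.34, adjusted p = 1.8e-09). Tat, the liver enzyme tyrosine aminotransferase (chr8:110717069-110726435), was at 0.757 and 0.685 CPM against 5.16 and 6.10 CPM (-2.96 ± 0.34). Full-length KDM6B was the highest group for both: the other 14 libraries held 0.316 to 1.91 CPM of H19 and 0.105 to 0.957 CPM of Tat. Cd3g, a T-cell receptor subunit, was lower by -2.65, and Grm8 and Robo2, a glutamate receptor and an axon guidance receptor, by -1.84 and -1.75.

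Kdm4a and Kdm4b, of the demethylases expressed in the series, differed slightly, and Kdm6a and Kdm6b did not pass the test. Kdm4a was at 300 and 292 CPM with IDR-deleted KDM4A and at 253 and 272 CPM with full-length KDM6B (0.17 ± 0.04, adjusted p = 0.0019), a call that was lost without the first library of either group. Kdm6b was at 81.4 and 70.8 CPM against 78.1 and 85.2 CPM (-0.10 ± 0.06, adjusted p = 0.23), with groups that overlapped. Reads of a construct and of the endogenous gene were not told apart, so these values do not measure the ectopic protein. Kdm4b was lower (-0.27 ± 0.07, adjusted p = 0.0026) and Kdm6a was at -0.03 ± 0.04 (adjusted p = 0.65). Uty, the Y-linked relative of Kdm6a, differed more, at 24.1 and 27.5 CPM against 16.8 and 17.4 CPM (0.59 ± 0.09, adjusted p = 1.1e-06), and full-length KDM6B was its lowest group. Of 19 genes for other histone demethylases 6 were higher and 5 lower, against 14.5% and 15.6% of all genes. Kdm7a, Kdm3a and Kdm5a were among the higher at 0.33, 0.30 and 0.29.

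Other chromatin regulators moved in both directions and by little. Over all genes tested 14.5% were higher and 15.6% lower. In the HUSH and MORC silencing complexes 5 of 8 genes were higher and 1 lower, led by Mphosph8, the H3K9 methyl reader, at 226 and 244 CPM against 171 and 178 CPM (0.43 ± 0.05). Of 20 genes for H3K9 methyltransferases and HP1 proteins 2 were higher and 2 lower. Among 10 genes of H3K36 methyltransferases 4 were higher and 3 lower, with Setd2 at 0.20 and Nsd1, at 754 and 750 CPM against 1049 and 1018 CPM, at -0.46. Polycomb repressive complex 2 had 6 of 13 higher and 3 lower, complex 1 had 6 of 21 higher and 3 lower, and DNA methyltransferases and TET enzymes had 4 of 11 higher and 1 lower, with Dnmt3a at 0.32. Most targets of Polycomb were not called, as were 21698 of all 31057 genes tested. Of 86 developmental regulators bound by Polycomb in stem cells 10 were higher and 6 lower (median log2 fold change 0.29, against 0 over all genes). Of 36 Hox genes 3 were lower and 0 higher, with 0 higher also at an unadjusted p under 0.05 and in DESeq2. Only 44 of the 86 regulators and 19 of the 36 Hox genes averaged at least 1 CPM, which limits these calls.

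Genes for abundant, short transcripts were lower with IDR-deleted KDM4A. Of 80 genes for cytosolic ribosomal proteins 76 were lower and 0 higher, against 15.6% lower among all genes, with a median of -0.52; edgeR at an unadjusted p under 0.05 and DESeq2 also gave 0 higher. Rps26 was at 141 and 148 CPM against 250 and 239 CPM (-0.76 ± 0.04) and Rps4x was at -0.73. The other 4 did not pass the test. Pseudogenes of ribosomal proteins are near-identical to their parents, so reads of one may be missing from, or assigned to, another. Of 15 mitochondrially encoded genes 12 were lower and 0 higher, with a median of -1.03, and again 0 were higher at an unadjusted p under 0.05 or in DESeq2. The gene mt-Cytb, a subunit of respiratory complex III, was at 84.8 and 89.1 CPM against 198 and 196 CPM (-1.18 ± 0.05). Mitochondrial RNA as a whole took 0.357% and 0.411% of gene reads with IDR-deleted KDM4A and 0.536% and 0.531% with full-length KDM6B, within 0.170% to 0.691% over all 16 libraries.

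Of 63 histone genes 41 were lower and 2 higher, against 15.6% and 14.5% of all genes (median -0.53). Hist1h3e, a replication-dependent H3 gene, was at 20.1 and 19.4 CPM against 37.4 and 36.4 CPM (-0.90), and the linker histone genes Hist1h1b and Hist1h1a were at -0.85 and -0.63. Their copies are near-identical, which limits the values of single members. The 2 higher ones, Hist3h2a at 1.15 and Hist1h2aa at 1.28, lost the call when a library was left out. The same direction ran through gene length. Protein-coding genes of at least 1 CPM were split into 5 bins by span. In the bin of the shortest spans, 171 to 8162 bp, 974 of 2883 genes were lower and 261 higher (median -0.19), and in that of the longest, 71412 to 2960899 bp, 587 were lower and 966 higher (median 0.08). Binned by exonic length, the shortest genes had a median of -0.21 and the longest of 0.08. The share of cytoplasmic RNA in the chromatin fraction was not measured, so its part in these differences was not tested.

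Among genes of the naive pluripotent state, falls outnumbered rises. Of 28 tested, 14 were lower and 1 higher, against 15.6% lower and 14.5% higher among all genes, with a median of -0.20 and 13 not called. Pou5f1, which encodes the pluripotency factor OCT4, was at 94.0 and 92.1 CPM with IDR-deleted KDM4A and at 150 and 177 CPM with full-length KDM6B (-0.82 ± 0.06, adjusted p = 5e-14). Nanog, a homeodomain factor of the same network, was at 153 and 152 CPM against 221 and 222 CPM (-0.53), and Tdgf1, a Nodal co-receptor, at 88.8 and 90.7 CPM against 142 and 136 CPM (-0.63). Both libraries of each group lay apart from the other group for these 3 genes, as in 60.6% of all genes tested. Prdm14 was at -0.63 and Dppa5a at -0.47, whereas Sox2 at -0.11 and Zfp42 at 0.04 did not pass. The 1 higher gene was Klf5, at 131 and 119 CPM against 115 and 110 CPM (0.15), which was not called without the first IDR-deleted KDM4A or the second full-length KDM6B library. In bulk libraries, fewer cells that express a gene and less of its RNA per cell cannot be told apart. The naive markers, with 0 of 28 below 1 CPM, summed to 4319 to 4437 CPM against 4827 to 4877 CPM, within 3597 to 4916 CPM over the 16 libraries.

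Markers of other cell types were examined beside these values. Over all genes tested 14.5% were higher and 15.6% lower. Primitive endoderm markers summed to 2357 to 2387 CPM against 2623 to 2637 CPM, with 5 of 23 genes higher and 4 lower (median 0.12). Among the lower ones was Sparc, a matrix protein, at 58.2 and 63.1 CPM against 121 and 120 CPM. No higher one is named here, so Sparc does not stand for the list. Trophectoderm markers summed to 205 to 207 CPM against 214 to 232 CPM, with 1 of 17 higher and 4 lower and the placental gene Tpbpa at 0 reads. Neural markers summed to 292 to 305 CPM against 289 to 302 CPM, with 3 of 20 higher and 3 lower, near the shares over all genes. The higher ones were Elavl3, a neuronal RNA-binding protein, at 22.7 and 22.3 CPM against 9.67 and 10.3 CPM (1.17), the neurofilament gene Nefm at 3.03 and 4.52 CPM against 1.39 and 1.47 CPM, and Map2 (0.74). The 3 lower ones are not named here, so these examples do not stand for the neural list. Of the fibroblast markers 7 of 11 were higher and 1 lower. Their sum of 5120 to 5146 CPM against 3445 to 3583 CPM is mostly Fn1, fibronectin, at 4920 and 4912 CPM against 3259 and 3386 CPM (0.57). Lum, a defining fibroblast gene, was at 0, and 9 of 16 fibroblast markers lay below 1 CPM.

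Collagen and laminin genes moved in both directions. Of 24 tested, 12 were higher and 5 lower, against 14.5% and 15.6% of all genes. The higher ones included Col6a2 at 2.51 and 2.60 CPM against 0.672 and 0.723 CPM (1.87), Col6a1 at 2.06 and Col1a1 at 1.02. The laminin Lama1, a basement membrane chain made by early embryonic cells, was lower at 421 and 415 CPM against 596 and 584 CPM (-0.50), with Lamc1 at -0.29 and the laminin-binding Nid1 at -0.39.

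Germline genes that DNA methylation silences in somatic cells were higher with IDR-deleted KDM4A. Of 42 tested, 24 were higher, against 14.5% of all genes, and 1, Rnf17, was lower at -0.14, a call lost with ERCC scaling or without the first full-length KDM6B library. The median was 0.50. Smc1b, the cohesin subunit of meiotic chromosomes, was at 69.9 and 77.0 CPM against 40.4 and 40.5 CPM (0.86 ± 0.06, adjusted p = 2.6e-14). Sycp2, a component of the synaptonemal complex, was at 16.5 and 18.4 CPM against 6.11 and 6.46 CPM (1.47 ± 0.13), and Tdrd5, which acts in the piRNA pathway of male germ cells, at 19.3 and 22.2 CPM against 8.71 and 8.38 CPM (1.28 ± 0.12). No library of one group reached the range of the other in these 3 genes, which were picked for their small p. The same held for 60.6% of all genes tested. The piRNA-binding protein gene Piwil1 and the piRNA pathway gene Asz1 were higher by 1.48 and 1.56. Some Xlr genes in the list have near-identical copies, which makes their values uncertain.

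Many promoters of such genes carry an E-box or an E2F6-type site, motifs bound by the MGA and E2F6 repressors of non-canonical Polycomb complex PRC1.6. To show where these letters stand, the 250 bases before the start of Smc1b, Tdrd5, Sycp2 and Piwil1 are printed 5′ to 3′ along the gene's strand, from RefSeq on GRCm38.p6, with CACGTG and TTCCCGC (or its reverse complement GCGGGAA) in capitals. The first 3 had the smallest p of the list, and Piwil1 was added for its E-boxes. The positions are chr15:85131958-85132207, minus strand, for Smc1b, chr1:156303349-156303598, minus strand, for Tdrd5, chr2:178407659-178407908, minus strand, for Sycp2, and chr5:128735996-128736245, plus strand, for Piwil1.
Smc1b: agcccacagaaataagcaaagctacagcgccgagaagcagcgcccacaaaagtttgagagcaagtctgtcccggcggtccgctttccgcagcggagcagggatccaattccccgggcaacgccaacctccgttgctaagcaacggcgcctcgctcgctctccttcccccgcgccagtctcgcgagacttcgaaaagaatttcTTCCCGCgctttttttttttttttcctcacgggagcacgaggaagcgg
Tdrd5: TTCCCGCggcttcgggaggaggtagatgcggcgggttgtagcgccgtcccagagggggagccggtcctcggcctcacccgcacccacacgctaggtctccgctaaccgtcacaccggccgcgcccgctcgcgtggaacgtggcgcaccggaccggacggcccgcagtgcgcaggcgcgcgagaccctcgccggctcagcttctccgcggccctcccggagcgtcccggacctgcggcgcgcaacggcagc
Sycp2: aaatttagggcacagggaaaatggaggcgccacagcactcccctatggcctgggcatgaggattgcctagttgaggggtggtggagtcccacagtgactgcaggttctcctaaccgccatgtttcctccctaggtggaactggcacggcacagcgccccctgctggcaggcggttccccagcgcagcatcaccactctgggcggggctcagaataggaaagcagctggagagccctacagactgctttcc
Piwil1: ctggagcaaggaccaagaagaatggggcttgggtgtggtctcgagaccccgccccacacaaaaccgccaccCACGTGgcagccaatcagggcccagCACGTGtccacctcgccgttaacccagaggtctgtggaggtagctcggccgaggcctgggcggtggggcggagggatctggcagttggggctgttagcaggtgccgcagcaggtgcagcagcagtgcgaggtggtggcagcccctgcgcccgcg
Smc1b and Tdrd5 held TTCCCGC, Piwil1 held CACGTG at 2 places, and Sycp2 held neither. Over both strands, CACGTG stood in 15 (38.5%) and TTCCCGC in 7 (17.9%) of the 39 germline genes with a RefSeq promoter, against 6.05% and 3.84% of all 27025 promoters. Of the higher genes 11 of 22 held either motif, and of those not called 8 of 16, 50% of each. A match is a description of these letters, not of a factor's binding.

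Genes of the 2-cell embryo were also higher. Of 32 tested, 19 were higher and 2 lower, against 14.5% higher and 15.6% lower among all genes (median 0.65). Usp17le, of a deubiquitinase family, was at 15.8 and 18.2 CPM against 8.78 and 7.54 CPM (1.06 ± 0.10), and Zscan4e, a SCAN-domain zinc finger gene, at 18.6 and 19.5 CPM against 11.899 and 12.011 CPM (0.67). Duxf3, which encodes the activator DUX, was at 1.19 and 1.34 CPM against 0.412 and 0.248 CPM (1.92 ± 0.46). The groups did not overlap for these genes, as in 60.6% of all genes tested. Usp17l and Zscan4 genes have near-identical copies, and their single values are uncertain. The lower ones were Gm12690 at -0.97 and Dppa2, an activator of Dux, at -0.26, the latter not called without the second IDR-deleted KDM4A library.

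Imprinted genes moved both ways. Of 44, 18 were higher and 8 lower, against 14.5% and 15.6% of all genes (median 0.15). The paternally expressed Mest was at 60.2 and 61.9 CPM against 33.2 and 32.6 CPM (0.89), and Magel2 and Nnat were higher by 1.51 and 1.07. The maternally expressed noncoding RNA Meg3 was at 1150 and 1158 CPM against 766 and 795 CPM (0.56). The growth regulator Grb10 was lower, at 81.4 and 80.6 CPM against 122 and 118 CPM (-0.56), as were the noncoding RNA Airn (-0.85) and H19. Higher and lower members thus included both maternally and paternally expressed genes.

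Chromatin-retained noncoding RNAs also split, with 9 of 37 higher and 12 lower, against 14.5% and 15.6% of all genes. Malat1, a nuclear speckle RNA and the most abundant of them, was at 33040 and 35223 CPM against 21015 and 20696 CPM (0.71 ± 0.03). Platr3, expressed in pluripotent cells, was at 6.87 and 6.37 CPM against 17.9 and 19.2 CPM (-1.49 ± 0.10), and Lncenc1, another noncoding RNA of naive stem cells, at 297 and 306 CPM against 442 and 418 CPM (-0.51). Neither group's libraries reached the other's, as in 60.6% of all genes tested. Among 36 clustered protocadherin genes, cell-surface proteins encoded in tandem arrays with shared exons, 3 were higher and 11 lower (median -0.19). Of 249 olfactory and vomeronasal receptor genes 23 were higher and 10 lower, below the shares over all genes, with a median of 0.01.

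Stress and metabolic lists differed in direction, beside 14.5% higher and 15.6% lower among all genes tested. Falls outnumbered rises in the ATF4 and unfolded protein list and in the hypoxia and glycolysis list. Of 24 heat-shock genes 8 were higher and 8 lower. Hspa1b, an inducible HSP70, was at 34.8 and 30.1 CPM against 12.9 and 12.5 CPM (1.36 ± 0.12) and its near-identical neighbour Hspa1a was at 1.39, while the small heat-shock gene Cryab was at -1.35. Of 36 genes of the ATF4 and unfolded protein responses 6 were higher and 14 lower: the endoplasmic reticulum chaperone Hsp90b1 was at 1070 and 1109 CPM against 717 and 690 CPM (0.63), and the amino acid transporter subunit Slc3a2 at 82.8 and 85.7 CPM against 136 and 135 CPM (-0.68). Hypoxia-induced and glycolytic genes had 18 of 33 lower, such as Aldoa (-0.51), and 7 higher, such as the collagen prolyl hydroxylase subunit P4ha2 (0.54). Cholesterol synthesis had 8 of 25 higher, led by Msmo1 (0.56), Lss (0.48) and Fdft1 (0.47), and 3 lower. Of 32 mitotic genes 14 were higher, among them the kinetochore genes Cenpf (0.46) and Cenpe (0.43), and 9 lower, among them the activator of the anaphase-promoting complex Cdc20 (-0.51).

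Targets of signalling pathways moved in both directions, beside 14.5% higher and 15.6% lower among all genes tested. Of 32 genes induced by ERK, whose pathway PD0325901 blocks, 6 were higher and 8 lower, among the latter the ERK phosphatase Dusp6 at 6.09 and 4.83 CPM against 11.6 and 9.96 CPM (-0.98). WNT targets, which CHIR99021 raises, had 4 of 22 higher and 3 lower. Of 31 p53 targets 3 were higher and 9 lower, and of 24 interferon-stimulated genes 3 were higher and 5 lower, with Ifitm1 at -1.15.

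**Figure D3:**
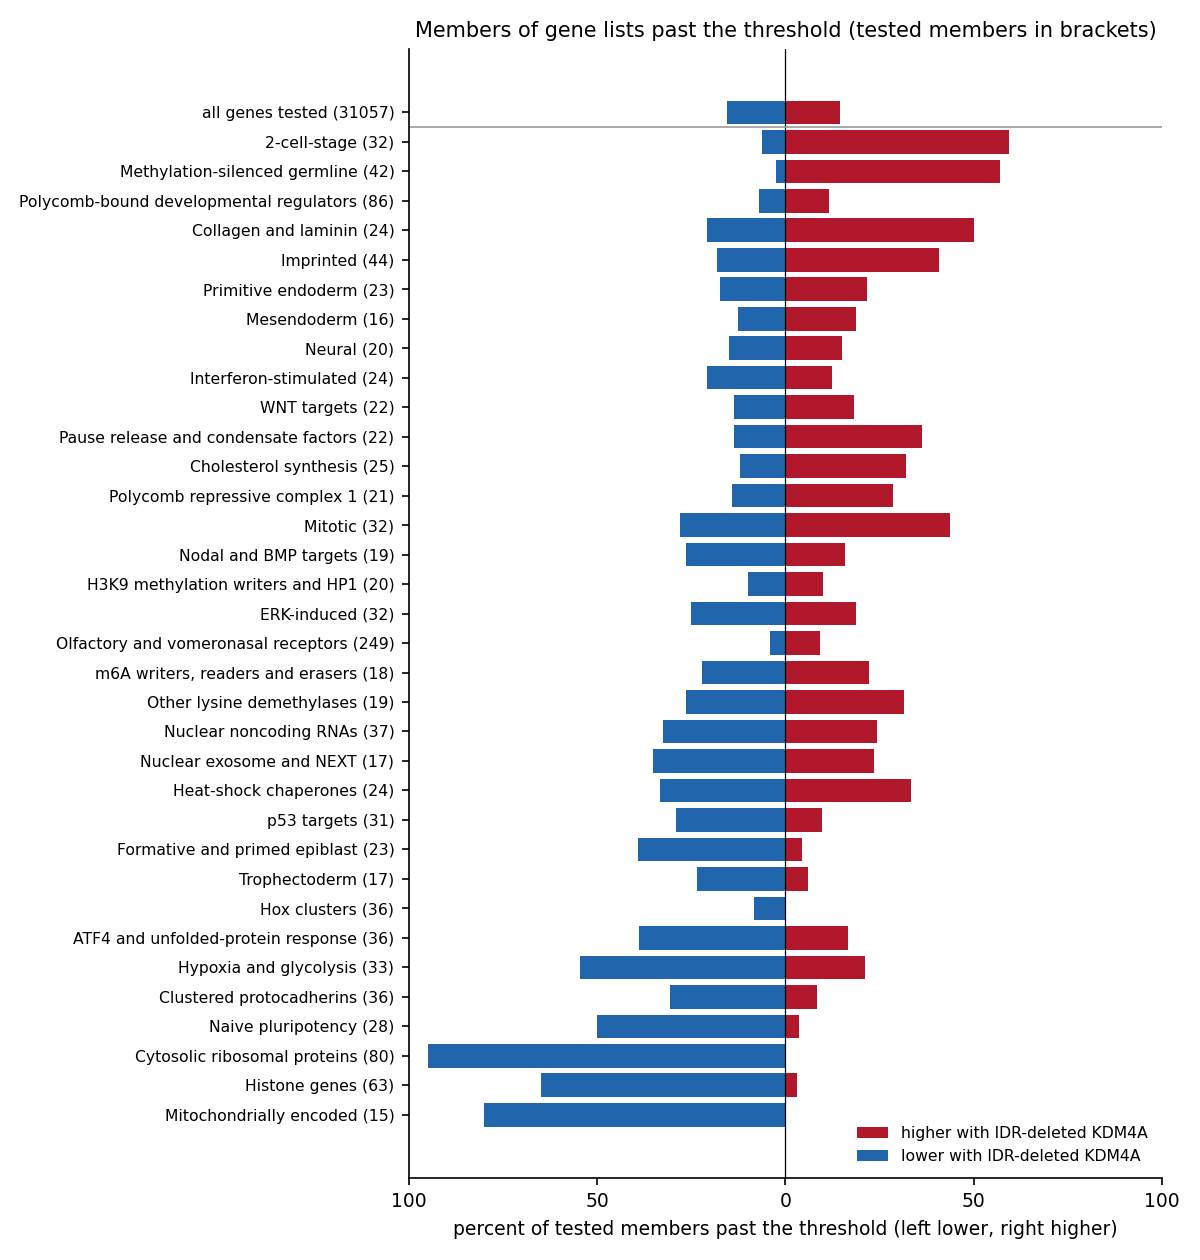
Percent of the tested members of each gene list that passed the test, lower with IDR-deleted KDM4A to the left and higher to the right, ordered by median log2 fold change, with all genes at the top; small lists are not drawn. Mitochondrially encoded genes (12 of 15 lower), histone genes (41 of 63 lower) and ribosomal protein genes (76 of 80 lower) stand at the bottom. The 2-cell genes (19 of 32 higher) and germline genes (24 of 42 higher) stand highest among the lists.

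Repeats drew 60.9 and 62.0 reads per 100 gene reads with IDR-deleted KDM4A and 59.7 and 58.6 with full-length KDM6B, within 50.1 to 95.4 over the 16 libraries. The groups did not overlap, but the difference was 0.06 on the log2 scale. An exact permutation test of 2 against 2 cannot go below p = 0.333. These totals include the chromosome 17 stretch described below, where single libraries decided the values of copies. Its tested copies took 69434 and 65996 CPM against 52911 and 51954 CPM. Totals without it were not compared, so the lack of overlap may rest on that stretch. Of 60 repeat families 9 (15%) differed. The largest difference was in srpRNA, copies of 7SL, the RNA of the signal recognition particle, at 2203 and 2012 against 4801 and 5679 CPM of repeat reads (-1.31 ± 0.12, adjusted p = 6.6e-05). Outside gene spans srpRNA was at -0.25 with an adjusted p of 0.22, so its difference was called only with the copies inside gene spans included.

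Among transposons, ERVL elements, the family that includes the MERVL elements of 2-cell embryos, stood at 24601 and 24531 reads against 22253 and 22101 reads on the same scale (0.15 ± 0.02). L1, the main autonomous retrotransposon, was at 141356 and 143567 against 133353 and 131215 (0.11 ± 0.02), and Satellite at 5351 and 5489 against 4664 and 4817 (0.19 ± 0.03). ERV1 was lower at -0.20 ± 0.03. Counted outside gene spans only, ERVL was at 0.47, Satellite at 0.34 and L1 at 0.30, while ERV1 was at -0.07 (adjusted p = 0.23) and not called. Simple repeats, at 0.59, and hAT-Tag1 elements, at 0.89, were called there and not over all copies. Single copies outside gene spans, scaled to the genes, did not all go with these sums. Of 8264 simple repeats 46 were higher and 146 lower (median -0.30), and of 4 hAT-Tag1 copies 0 were called. Satellite had 10 of 495 higher and 7 lower (median -0.23), and ERVL 364 of 4354 higher and 91 lower. The family sums include the chromosome 17 stretch described below. As families outside gene spans, Alu (B1) was lower at -0.16 and MIR at -0.14. Over all copies they were at -0.004 and -0.02 and not called, and at 0.08 and 0.07 when scaled to the genes. Scaling moved the number of families called, as given in the closing section.

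Of 716086 single repeat copies tested 20195 (2.82%) differed, 11750 (1.64%) higher and 8445 (1.18%) lower. The split turned to 7237 higher and 13033 lower with the library sizes of the repeat table, and leaving out any 1 of the 4 libraries gave 8822 to 10277 calls. The largest fold changes came from 1 stretch of chromosome 17, between 40153889 and 40266866 on GRCm39, where single libraries decided the values. An L1 copy at chr17:40221832-40222950 held 0.0874 and 694 CPM with IDR-deleted KDM4A and 0 in both libraries with full-length KDM6B. A simple repeat at chr17:40187117-40187167 held 0.0291 and 0 CPM against 317 and 4.76 CPM. In each case 1 of the 4 libraries held nearly all reads, so these copies do not separate the groups in the way the other calls do. Summed over its 33 tested copies the stretch took 69434 and 65996 CPM against 52911 and 51954 CPM, and 14 of the 33 were called. An ERVK copy at chr1:48780043-48780745, which lies 1848031 bp from the nearest transcribed protein-coding gene, was at 1.54 and 0.856 CPM against 0.0867 and 0.0903 CPM (3.73 ± 0.61). A MaLR copy at chr1:51438964-51439305, which lies 65716 bp past the 3′ end of the single-stranded DNA binding gene Nabp1, was at 0 and 0.0343 CPM against 1.24 and 0.903 CPM (adjusted p = 8.7e-06). No fold is given for it, since its reads with IDR-deleted KDM4A were too few.

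Repeat copies outside gene spans split by their place relative to genes. Of 117906 tested, 4200 (3.56%) differed, 1531 (1.3%) higher and 2669 (2.26%) lower. Copies past the 3′ ends of transcribed genes were lower with IDR-deleted KDM4A, and copies far from such genes were higher. This division was made after the values were seen. It used 9551 protein-coding genes of at least 10 CPM on average, and the chromosome 17 stretch was left out. Within 10 kb past a 3′ end 1521 of 35154 copies (4.33%) were lower and 91 (0.259%) higher, with a median of -0.51. These copies summed to 14588 and 14826 CPM with IDR-deleted KDM4A and to 19164 and 19045 CPM with full-length KDM6B, a 1.30-fold difference. IDR-deleted KDM4A held the lowest sums of the 8 groups, IDR-deleted KDM6B followed at 16262 and 16330 CPM below full-length KDM6B, and the other 5 groups held 27273 to 35290 CPM.

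The difference faded with distance. The median was -0.48 at 0 to 2 kb past the 3′ end, -0.54 at 2 to 5 kb, -0.55 at 5 to 10 kb, -0.29 at 10 to 20 kb and -0.02 at 20 to 50 kb. Within 10 kb before the 5′ end 268 of 12193 copies were lower and 80 higher, with a median of -0.27 and sums of 4587 and 4801 CPM against 5043 and 5158 CPM. Copies more than 100 kb from either end had a median of 0.24, with 805 of 33798 (2.38%) higher and 217 (0.642%) lower. They summed to 20181 and 21465 CPM against 17311 and 17549 CPM, the last being the lowest group of the 8. In that far set 206 of 1186 ERVL copies (17.4%) were higher and 1 was lower, with a median of 0.63 and sums of 1366 and 1358 CPM against 845 and 780 CPM. L1 copies there had 366 of 17301 higher and 61 lower (median 0.32), and all other families a median of 0.05.

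**Figure D4:**
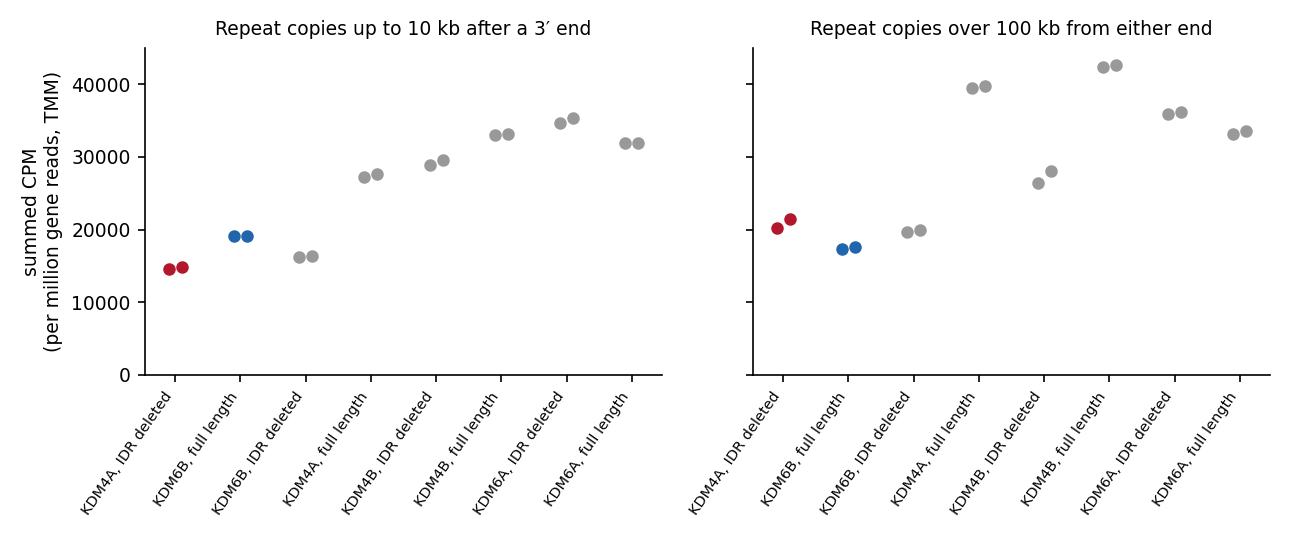
Summed CPM of repeat copies within 10 kb past 3′ ends and more than 100 kb from genes, each point 1 of the 16 libraries. IDR-deleted KDM4A lies lowest past 3′ ends, at 14588 and 14826 CPM, and full-length KDM6B lowest far from genes, at 17311 and 17549 CPM.

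The same reads were then counted gene by gene, as all repeat reads within 10 kb past a gene's 3′ end. Of 6396 genes with enough reads 2258 (35.3%) differed, 2117 (33.1%) of them lower and 141 (2.2%) higher with IDR-deleted KDM4A. The median of these windows was -0.45, while that of the genes themselves was -0.03. The window was below its own gene in 4910 genes (76.8%), by a median of -0.42. Of the 2117 genes with a lower window 839 were lower themselves, 863 were not called and 415 were higher. The window of Actb fell from 55.3 and 56.1 CPM with full-length KDM6B to 24.3 and 22.6 CPM with IDR-deleted KDM4A (-1.25 ± 0.07, adjusted p = 9.0e-25), more than the gene (-0.78). That of Mtcl1, a microtubule crosslinking protein, was at 2.07 and 2.02 CPM against 8.86 and 9.08 CPM (-2.13 ± 0.13), with the gene at -0.03 (adjusted p = 0.86).

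**Figure D5:**
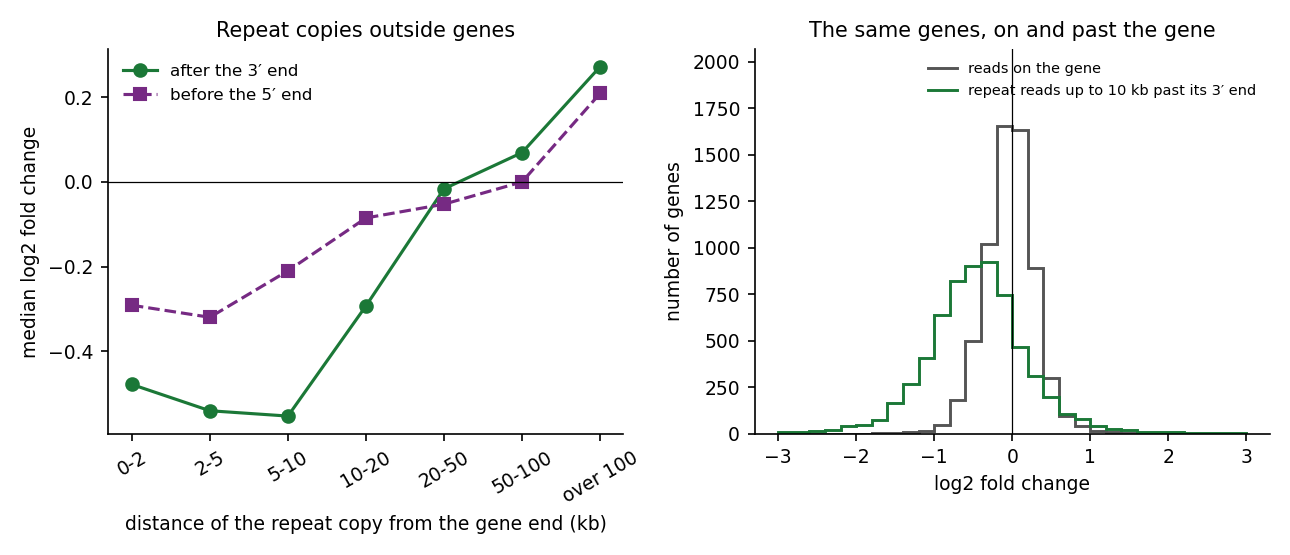
Left, median log2 fold change of repeat copies outside gene spans by distance in kb from the nearest 3′ end (circles) or 5′ end (squares) of a transcribed protein-coding gene, at -0.55 at 5 to 10 kb past the 3′ end and 0.27 beyond 100 kb. Right, number of genes by log2 fold change of their own reads (grey) and of repeat reads up to 10 kb past the 3′ end (green), with medians of -0.03 and -0.45.

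Further examples included both gene directions. The window of Yap1, the Hippo pathway coactivator, was at 3.03 and 3.39 CPM against 10.3 and 10.1 CPM (-1.67; gene -0.32). That of Inpp5d, an inositol phosphatase, was at 17.6 and 17.8 CPM against 37.9 and 36.4 CPM (-1.07; gene 0.10), and that of Agrn, a proteoglycan of basement membranes, was at -1.22 with the gene at 0.21. The groups did not overlap in any of these, which were picked for the smallest p among the windows. The opposite was seen past Tmem192, a lysosomal membrane protein, at 34.5 and 35.1 CPM against 18.6 and 17.7 CPM (0.94; gene 0.01). Before the 5′ end, 485 of 4392 windows (11%) differed, 368 (8.38%) lower and 117 (2.66%) higher, with a median of -0.12 for the windows and -0.03 for their genes. Reads were counted without regard to strand and a window may overlap the transcript of a convergent gene, so the source of single windows is uncertain.

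The reverse arrangement, full-length KDM4A against IDR-deleted KDM6B, used other libraries. There 16625 genes (53.5%) differed, 8517 (27.4%) higher and 8108 (26.1%) lower, and the difference between the 2 arrangements was itself called in 14168 genes (45.6%). Of the 9359 genes that separated IDR-deleted KDM4A from full-length KDM6B, 6677 were also called in the reverse arrangement, which is 71.3% of the former and 40.2% of the latter list. In 3147 of these KDM4A stood to KDM6B in the same direction both times, and in 3530 in opposite directions. Scaled to the ERCC RNAs the reverse arrangement gave 23076 higher and 623 lower genes, with a median shift of 1.14, and the split became 4468 in the same and 3036 in opposite directions. The difference between the arrangements then gave 745 higher and 18940 lower genes, with a shift of -1.07.

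Single genes showed each kind. Sms was at 155 and 161 CPM with full-length KDM4A and at 162 and 160 CPM with IDR-deleted KDM6B, a log2 fold change of -0.02, and the difference between the arrangements was 1.37 (adjusted p = 9.6e-21). Tat, at -0.40 (adjusted p = 0.37) in the reverse arrangement, differed between them by -2.55, and Smc1b, at -0.12 there (adjusted p = 0.074), by 0.98. ERCC scaling turned these 3 values of the reverse arrangement to 1.07, 0.68 and 0.97, so their direction there rests on the scaling. H19 was lower in both arrangements, at -3.13 and -1.59, and at -0.51 with ERCC scaling in the reverse one.

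Gene groups are given for both arrangements side by side, with the ERCC-scaled median of the reverse one last. Mitochondrially encoded genes had medians of -1.03 and -1.83 (-0.73), and ribosomal protein genes of -0.52 and -1.39 (-0.29). The 2-cell genes had medians of 0.65 and 2.05 (3.12), so these 3 groups kept their sign. Protocadherins had medians of -0.19 and 1.08 (2.17). Polycomb-bound regulators, at 0.29 and -0.95, had opposite signs in the gene-scaled fit only, since the ERCC-scaled median was 0.14. The same held for germline genes, at 0.50 and -0.27 (0.82). Naive pluripotency genes, at -0.20 and -0.24 (0.85), and histone genes, at -0.53 and -0.83 (0.26), kept their sign in the gene-scaled fit only.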

How the data were processed

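Chromatin-associated RNA of 16 E14TG2a libraries was depleted of rRNA, fragmented and made into libraries with a stranded kit, per the labels. The 2 deposited tables give raw read counts per gene and per repeat copy. Per the file headers, the authors ran featureCounts 2.0.3 on GRCm39 alignments with spike-ins, set the lowest mapping quality to 30, counted both reads of a pair and did not use strand. Antisense and overlapping genes are therefore uncertain. The submitters' processing notes also name HISAT2, SAMtools, Picard and MACS2. Symbols came from GENCODE M21 (51948 genes matched, 4993 did not), promoters from RefSeq on GRCm38.p6.

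The gene test was edgeR's robust quasi-likelihood test (edgeR 4.0.16, R 4.3.3) after filterByExpr at a minimum count of 10 and TMM scaling. The 16 libraries entered a single model with 1 mean for each of 8 groups, which leaves 8 residual degrees of freedom. Standard errors come from dividing a log2 fold change by the square root of its F. ERCC RNAs stayed out of library sizes and tests. Families were tested likewise, and copies that reached 5 reads in 2 or more libraries used the library sizes of the genes. The gene test was checked on simulated counts. Alternatives were other scalings (median ratio, ERCC), DESeq2 1.42.0, no filter, a replicate block, thinned counts, only the compared libraries and leaving out each library.

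Named genes were the demethylases, the 10 largest rises and falls of at least 1 CPM without overlap, the 6 smallest p in each direction above 20 CPM, and the 3 smallest p of each of 43 lists. Also by rule were the 5 largest family rises and falls and the 4 largest copy rises and falls. Further list members, given as extremes, exceptions or abundant examples, were named after their values were seen: Malat1, Col6a1, Col6a2, Col1a1, Asz1, Piwil1, Duxf3, Prdm14, Dppa5a, Klf5, Sox2, Zfp42, Nnat, Magel2, Airn, Hist3h2a, Hist1h2aa, Rnf17, Gm12690, Dppa2 and Cryab. The groups, members and lists were chosen with earlier results of these data known. Some items that the rule takes are not reported here.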

Additional observations from a re-analysis of the deposited data

Results flagged for a closer look

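The difference between a KDM4A and a KDM6B construct was not the same when KDM4A lacked the IDR as when KDM6B did: the test of that difference was passed by 14168 of 31057 genes (edgeR), 7085 with a higher and 7083 with a lower KDM4A-to-KDM6B difference when the deletion was in KDM4A. Between these arrangements both proteins differ in form, so the part of either deletion in the difference cannot be told apart.

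Reads of ERCC spike-in RNAs stood in the gene table although the labels name only an RNA methylation control. The 4 libraries held at least 347648 such reads each. They were 1.12% and 1.06% of gene reads with IDR-deleted KDM4A and 1.15% and 1.24% with full-length KDM6B, within 0.582% to 1.55% over the 16 libraries. The step at which they were added is not given in the sources used here.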

How the results depend on the processing

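The 3 gene counts stayed within 1.5 times their value under every alternative run. For IDR-deleted KDM4A against full-length KDM6B, leaving out 1 library gave 7261 to 7481 genes and the other alternatives 8455 to 9938, with 4246 higher and 4470 lower in DESeq2. Equal replicate numbers deviated together at a correlation of 0.089 for this pair and of 0.011 to 0.506 over the 28 pairs of groups, with IDR-deleted KDM4A at 0.381 to 0.422 against full-length KDM4A and the KDM4B and KDM6A groups. Pairs among the KDM4A, KDM4B and KDM6A groups lay at 0.381 to 0.506, and pairs with a KDM6B group at 0.011 to 0.136. The comparison made here crosses that division, and whether the KDM6B libraries were handled apart was not tested. Not every pair passed 0.1, so the numbers were not taken to pair the libraries, and the main model holds no replicate term. A replicate block gave 9938 genes, 24890 copies and 2314 windows.

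Repeat families depended on scaling. With the gene library sizes 22 were called (19 higher, 3 lower), with ERCC scaling 22 (21 and 1) and with DESeq2 24 (21 and 3), against 9 (5 and 4). ERCC scaling turned Unknown repeats to 0.0061, and outside gene spans TcMar-Mariner was at -0.21 and Y-chromosome satellites at -0.25, neither called; the cause was not tested. Repeat reads relative to ERCC in place of gene reads differed by 0.19. For single copies, 4230 of 121845 were called when fitted outside gene spans alone, which tests fewer copies. Leaving out 1 library gave 8822 to 10277 copies, and the library sizes of the repeat table turned the split to 7237 higher and 13033 lower. With gene floors of 1 and 30 CPM in place of 10, the median past 3′ ends was -0.48 and -0.56, and far from genes 0.26 and 0.17.

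Of the 179 genes examined singly, 161 kept their side of the threshold under every alternative run, and those that passed it kept their direction. The same held for 12 of 12 named windows, 7 of 13 named copies and 3 of 9 families. Most of these genes, and the windows, copies and families, were picked for a small p or a large change in the main fit. Their shares therefore do not stand for all results. Of 43 list counts, 31 stayed within 1.5 times their value. For lists the alternatives were median-ratio and ERCC scaling, leaving out each library, and only members of at least 1 CPM.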

Other observations

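By gene class, 3426 of 17290 protein-coding genes were higher and 3663 lower with IDR-deleted KDM4A, against 715 higher and 712 lower of 7043 long noncoding genes and 256 and 305 of 3996 pseudogenes. Over all genes tested 14.5% were higher and 15.6% lower, to be set beside the lists that follow. A joint list of factors that release RNA polymerase II from pausing and of transcriptional condensate factors had 8 of 22 genes higher and 3 lower. The nuclear exosome and its NEXT adaptor, which degrade nascent noncoding RNA, had 4 of 17 higher and 6 lower, with the exosome nuclease Dis3 at 0.38 and Zcchc7 at 0.41. Writers, readers and erasers of m6A had 4 of 18 higher and 4 lower. The formative epiblast list had 1 of 23 higher and 9 lower, and the mesendoderm list 3 of 16 higher, among them Fgf8 at 1.39, and 2 lower. Targets of Nodal and BMP had 3 of 19 higher and 5 lower.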
